A study of Drosophila melanogaster with 4 samples.

Results

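Whole female flies were compared with whole male flies on 2 female and 2 male arrays, which are all 4 arrays of the series. The flies were Drosophila melanogaster of the w1118 strain, given as wild type, and were 10 days old. The control female and control male flies had not been exposed to raised pressure. The HN female and HN male flies had been kept under hyperbaric normoxia (HN, a pressure of 2 ATA under normoxic conditions) from the egg to eclosion. Each array held RNA pooled from 20 whole flies, so that each combination of sex and treatment has 1 array and the sexes are compared as a control pair and an HN pair that share no array. Of 32162 probes, 24731 were kept because they were well above background on both arrays of at least 1 sex, by the flag that the scanner software gives each spot. Sex differences are given as female minus male on the log2 scale, so that 1 is 2-fold higher in females and -1 is 2-fold higher in males.

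A whole adult fly is a mixture of body tissues that both sexes have and of gonads and glands that only 1 sex has. The ovary loads each egg with messenger RNA and with ribosomes for the embryo and wraps it in an eggshell. The testis transcribes many genes that are used in no other tissue, and the accessory glands and ejaculatory duct add seminal peptides. In somatic cells of males, the MSL complex with its non-coding RNAs roX1 and roX2 raises transcription of the single X chromosome. In a whole body, more cells of a type and more RNA per cell cannot be told apart.

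The unscaled median signal was lower on the female arrays (192 in control and 180 in HN females) than on the male arrays (356 in control and 453 in HN males). Likewise, 67.7% and 68.5% of probes were well above background on the female arrays and 72.8% and 79.1% on the male arrays, in the same order. The HN male array thus had the most probes above background. No spot was saturated. All 4 arrays lay on 1 slide, and the control male array was read in a scan of its own. In the control pair, scan and sex cannot be told apart, whereas both arrays of the HN pair came from 1 scan. The sex labels were checked with genes of known sex. Vm34Ca, an eggshell gene, was far above background on both female arrays alone, and roX2 on both male arrays alone.

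Sex differences were large and were found over most of the kept probes. With each array scaled to its median, limma with treatment as a block called 20794 of the 24731 probes (84.1%) at an adjusted p under 0.05. Of these, 15820 (64.0% of those tested) were higher in females and 4974 (20.1%) were higher in males. Of the calls in males, 2752 were probes above background on both male arrays and no female array, and 1880 were above background on all 4. Of the calls in females, 597 were probes above background on both female arrays and no male array, and 14375 were on all 4. Probes kept through 1 sex alone were selected by that sex, so their calls add no support. The median size of the difference over all kept probes was 1.96 on the log2 scale, beside a median standard error of 0.10. The middle of the called differences was 2.20 for probes higher in females and -4.49 for probes higher in males. A probe that was not above background in 1 sex enters these values, and the counts and percentiles below, with its own dim signal, so that its difference is no exact size. Among the 19772 probes above background on all 4 arrays the differences ran from -9.76 to 12.89. The fit had 1 residual degree of freedom, and its error is the gap between the control and HN pairs, since no array was repeated. A test of a single probe on its own, an exact two-sided permutation of 2 against 2 arrays, cannot go below p = 0.333.

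**Figure D1:**
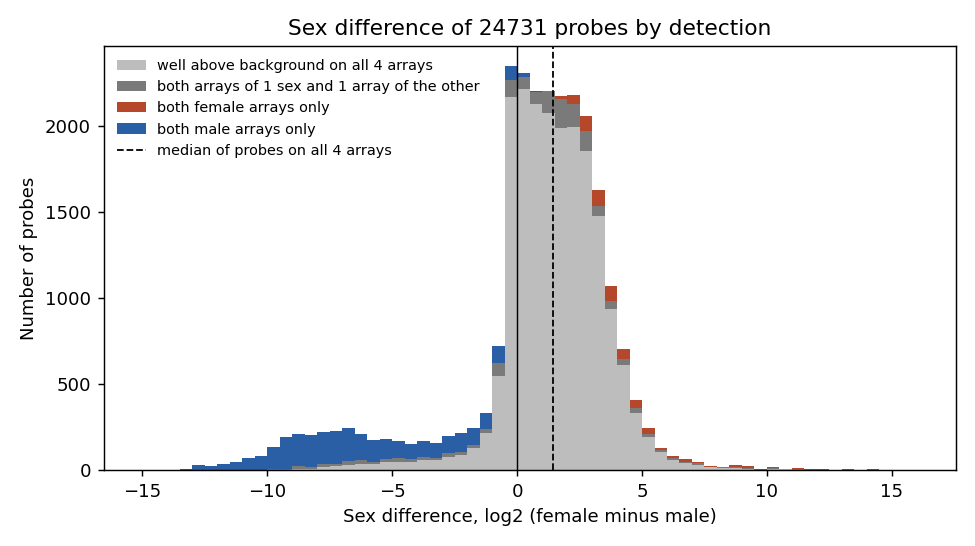
Number of probes (vertical axis) in bins of the sex difference in log2 units, female minus male (horizontal axis), for the 24731 kept probes, stacked by where they were well above background. Probes on all 4 arrays form a block that starts near 0 and reaches past 4, with its median at 1.45 (dashed line), and the long left tail is made mostly of probes found on both male arrays only.

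How the calls divide between the sexes depended on the scaling between arrays. With the main scaling, 76.1% of the called probes were higher in females. That share was 61.4% with quantile normalization, 52.0% without scaling, 41.5% with the 75th percentile and 37.7% with the median over the probes found on all 4 arrays. The median sex difference of the 19772 probes on all 4 arrays was 1.45, 0.63, 0.34, -0.15 and -0.33 under these 5 scalings, in the same order. Which sex had more calls thus changed with the scaling. A count of calls kept under all 5 scalings, chosen after the data had been seen, gave 8002 probes higher in females (32.4% of those tested) and 4570 higher in males (18.5%), or 50.8% of those tested in all. Of the probes in this count, 8716 were above background on all 4 arrays, 2660 on both male arrays only and 509 on both female arrays only. All 4 alternatives moved the median toward males, so that calls in females could turn and calls in males hardly could. Of the 15820 probes called higher in females in the main setting, between 334 (without scaling) and 4448 (median over probes on all 4 arrays) turned to males.

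**Figure D2:**
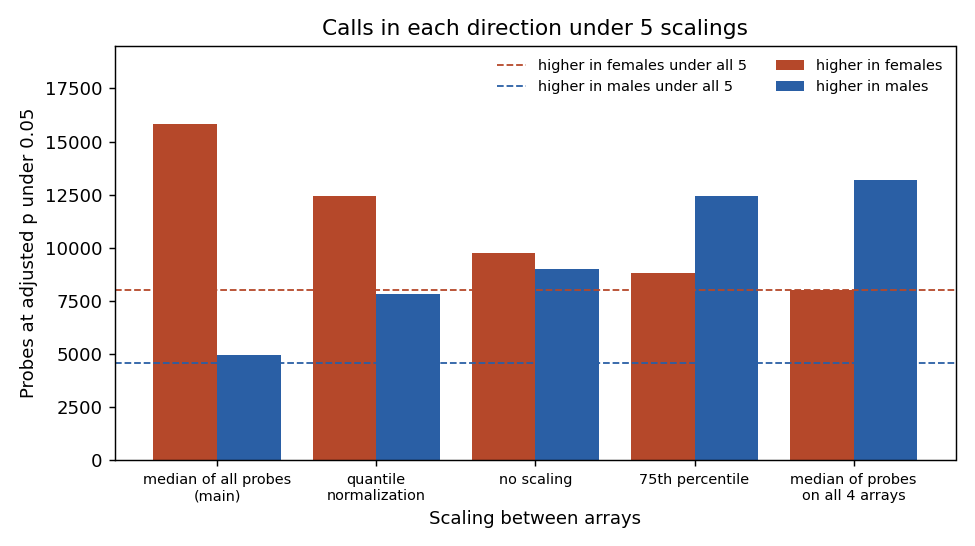
Probes at an adjusted p under 0.05 (vertical axis) that were higher in females (red bars) and higher in males (blue bars) under each of 5 scalings between arrays (horizontal axis). The red bars fall from 15820 to 8004 and the blue bars rise from 4974 to 13201 from left to right, and the dashed lines mark the 8002 and 4570 probes called alike under all 5.

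The shape of the distribution does not change when an array is divided by a constant, and it was not symmetric. The 5th percentile lay 8.79 below the median of all kept probes on the log2 scale, and the 95th percentile lay 3.26 above it. More than 64-fold away from the median there were 2376 probes on the male side and 211 on the female side. At 4-fold from the median the sides were close, with 4122 on the male side and 3913 on the female side. The central part was nearly even, as the quartiles lay 1.35 below and 1.43 above the median. Among the 19772 probes on all 4 arrays, the 5th and 95th percentiles lay 2.35 below and 2.91 above the median, so that most of the long male tail lay in probes outside this set. Within it, 259 probes lay over 64-fold on the male side and 81 on the female side.

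The same change with size was seen when each pair had to pass a fold limit by itself in the main scaling. Over 2-fold in both treatments, 12600 probes (50.9% of those kept) were higher in females and 3768 (15.2%) were higher in males. The numbers over 8-fold were 4181 and 2873. At 16-fold the order had turned, with 1682 probes higher in females and 2551 in males. Over 64-fold there were 336 and 1848, and over 1024-fold 67 and 277. Female excess was also most common among bright probes. Of the 5565 probes whose brighter sex had a signal over 10000, 77.6% were over 2-fold higher in females and 7.64% in males. Of the 2963 with a signal under 100, these shares were 29.3% and 12.7%. The share in females is again tied to the scaling.

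The sex differences of the control pair and the HN pair were close to each other. Over the 24731 probes, Pearson's r between the pairs was 0.989 and Spearman's rho was 0.980. These are relations across probes that lie on the same 4 arrays, and probes are not replicates. In 23555 probes (95.2%) the sign was the same in both pairs. The gap between the pairs had a median size of 0.17, with 5% of probes below -0.71 and 5% above 0.62. Repeat spots of 1 probe (7027 probes) had a standard deviation of the log2 sex ratio of 0.11 (control pair) and 0.10 (HN pair). These are single spots well above background on all 4 arrays. The gap is over the means of all kept probes, so the 2 measures are not alike. Of the 13285 probes over 2-fold higher in females in the control pair, 94.8% were so in the HN pair as well. Of the 13062 in the HN pair, 96.5% were so in the control pair. For males, 92.3% of the 4084 probes of the control pair and 97.1% of the 3881 of the HN pair were shared. The HN pair alone, which lies within 1 scan, thus gave numbers near those of the control pair, in which the scans differ.

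A small set of probes departed from this. The gap between pairs exceeded 2-fold for 1344 probes (5.43%) and 8-fold for 98. Signs were opposite and both past 2-fold in 25 probes, of which 16 were higher in females in the control pair and higher in males in the HN pair and 9 the other way round.

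**Figure D3:**
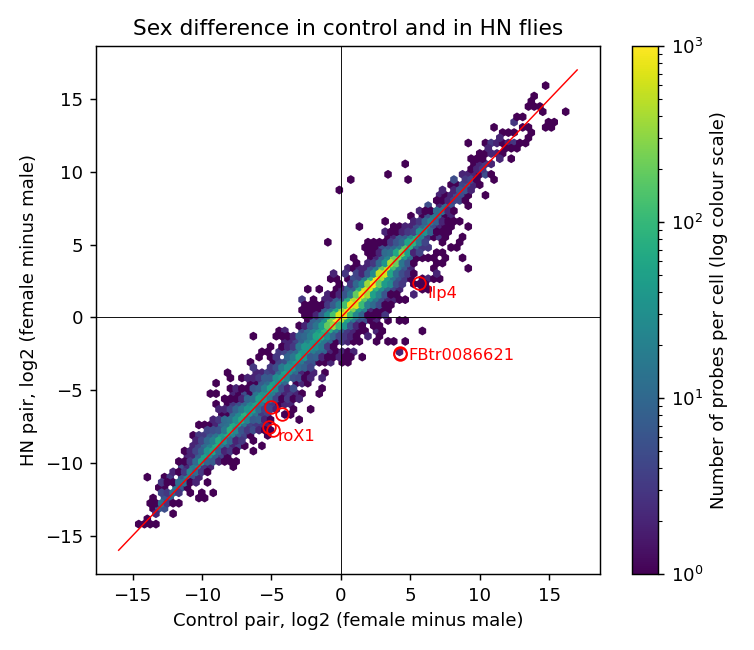
Sex difference in the HN pair (vertical axis) against that in the control pair (horizontal axis), both in log2 units as female minus male, for the 24731 kept probes, coloured by the number of probes per cell on a log scale. Most probes follow the red line of equal values. The circled probes of FBtr0086621 lie in the quadrant of opposite signs, those of Ilp4 lie below the line on the female side, and those of roX1 lie below it on the male side.

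Detection does not depend on scaling, and it separated the sexes unevenly. It does depend on the brightness of each array. The unscaled medians were 192 and 180 on the control and HN female arrays and 356 and 453 on the male arrays. How far the uneven counts below follow from this was not tested. A probe was taken as sex-limited if it was well above background on both arrays of 1 sex and on neither of the other. By this count 2913 probes (11.8% of those kept) were male-limited and 598 (2.42%) were female-limited. Another 1448 probes were found on both arrays of 1 sex and on 1 array of the other. Of the 875 among them that were found on both female arrays, 854 were also found on the HN male array and 21 on the control male array. The female-limited count thus rests on the HN male array, and without it 1452 probes would be female-limited. The 573 probes found on both male arrays and on 1 female array divided into 365 with the HN female and 208 with the control female array.

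Male-limited probes were bright in males. Their median scaled signal was 1010 on the control male and 884 on the HN male array, against 7.87 and 7.95 on the control and HN female arrays. Female-limited probes had medians of 87.7 and 80.5 on the control and HN female arrays, and 5.89 and 6.12 on the male arrays. Where a sex was not above background, the fold is given as a lower bound. For this, the mean of the bright sex was set against the higher of the dim probe's own signal and the lowest signal above background on each array. Both sides are means over the 2 arrays of a sex, so 1 pair alone can lie below the bound. The lowest signal is that of the dimmest probe above background. Probes not above background can read higher, such as 1 probe of the lncRNA CR32661 at 33.9 in HN females, so no bound is strict. Those lowest signals were 15.1 on the control female, 14.5 on the HN female, 10.6 on the control male and 4.97 on the HN male array, so that bounds reach further where males are the dim sex. The median bound was 60.7-fold for male-limited probes and 9.26-fold for female-limited probes. At least 64-fold was reached by 1430 of the 2913 male-limited and 92 of the 598 female-limited probes. At least 2-fold was reached by 2616 of the 2913 male-limited and by all 598 female-limited probes. The bound was under 1 for 32 male-limited probes, which have no fold. In the fit, 2 male-limited probes were called higher in females. The adjusted p-values given below for sex-limited probes come from a fit that uses the dim signals of the other sex. These probes were selected by detection in 1 sex, so such p-values add no support. Unlike the detection itself, all bounds hold for the main scaling. With the median over probes on all 4 arrays they would be 3.43-fold lower for females and 3.43-fold higher for males.

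Large differences among probes measured in both sexes were counted apart from these bounds. On all 4 arrays, 111 probes were over 64-fold higher in males in both treatments and 189 were over 64-fold higher in females, in the main scaling. These were 6.01% of all probes over 64-fold in males and 56.25% of those in females. Over 256-fold the shares were 1.55% and 35.9%. In this scaling, large male differences were thus mostly bounds of male-limited probes, and large female differences were more often measured in both sexes than male ones. Counted from the median of the probes on all 4 arrays, 259 lay over 64-fold on the male side and 81 on the female side.

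Gene symbols could be given to 412 of the 32162 probes, and 319 of them, from 277 genes, were kept. Of these 319, 178 (55.8%) were called higher in females and 95 higher in males, beside 64.0% and 20.1% of all kept probes. Under all 5 scalings 87 (27.3%) and 89 (27.9%) were called so, beside 32.4% and 18.5% of all kept probes. The genes described below come from this small share, and the largest differences on the arrays belong to probes that have only a transcript identifier. FBtr0112535 had signals of 148538 in control and 154632 in HN females, and 5.60 and 2.50 in control and HN males. It was at least 20927-fold higher in females (adjusted p = 0.000168). FBtr0076574 read 433894 and 431540 on the female arrays, and in males it was above background on the HN array alone, at 21.8. On the male side, FBtr0081054 had 4 probes, all male-limited, with bounds from 120.1 to 11618-fold. FBtr0084914 read 9.81 and 8.39 in females against 164890 and 147172 in males, at least 10506-fold higher. In each of these transcripts the female and male signals did not overlap.

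Among the named genes, an eggshell gene had the largest excess in females. Vm34Ca encodes a protein of the vitelline membrane, the inner layer of the eggshell. Its signal was 27249 in control and 29189 in HN females, against 9.01 and 4.29 in control and HN males. Both female arrays were thus far above both male arrays, by at least 3894-fold (adjusted p = 0.000200, from a fit that uses the dim male signals). CG32642 followed with 8430 and 8273 in females and 4.69 and 2.23 in males, at least 1153-fold higher (adjusted p = 0.000193). Mur11Da, named as a mucin-related gene, had signals of 1343 and 1368 in females and 4.90 and 2.23 in males. This is at least 187-fold higher (adjusted p = 0.000313). Neither gene was above background in males. These 3 genes were female-limited. The eggshell list holds 20 genes and only Vm34Ca of it could be named, so the list as a whole could not be described. None of the genes on the lists of yolk proteins, spermatheca and parovaria, sex-dependent fat body and head genes and housekeeping genes had a symbol here.

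Other genes high in females were also found in males at lower levels. The torso gene (tor) encodes a receptor tyrosine kinase that the mother supplies to the egg and that patterns the ends of the embryo. It read 4852 and 4476 in control and HN females and 71.0 and 70.9 in control and HN males, a log2 difference of 6.04 (SE 0.09, adjusted p = 0.000111). Of the 52 symbols on the list of female germline and maternal genes, some of them names of the same gene, only tor matched a probe. Art7, an arginine methyltransferase, read 7898 and 7017 in females and 167.9 and 160.3 in males (log2 difference 5.50). The lncRNA CR32027 read 3854 and 3560 in females and 24.6 and 14.7 in males (7.60). All 3 were above background on all 4 arrays, with no overlap between the sexes. The kinetochore motor cmet was female-limited, with 179.8 and 165.6 in females and 5.22 and 3.27 in males, at least 23.8-fold higher. CG17801 read 353.8 and 276.4 in females and, on the male arrays, was above background in HN males alone, at 11.2. The centriole gene asl, chosen after its values had been seen, read 15342 and 14283 in females and 1556 and 1312 in males (log2 difference 3.37). The calls of these genes held under all 5 scalings.

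Probes named for small RNAs of splicing and their relatives were higher in females in the main scaling. All 5 snRNA probes were called higher in females, 4 of them under all 5 scalings, with differences from 1.26 to 5.57. U11 and U12 are RNAs of the minor spliceosome. The probe named for U11 read 3064 and 3369 in control and HN females and 75.01 and 61.4 in control and HN males (log2 difference 5.57, SE 0.15, adjusted p = 0.000190). The probe named for U12 read 3302 and 3717 in females and 176.1 and 140.2 in males (4.48). Whether these probes and those of snoRNAs and scaRNAs measured the mature small RNAs was not tested. All 5 snoRNA and scaRNA probes were called higher in females too, 3 of them under all scalings. The Uhg genes host snoRNAs, which guide the modification of ribosomal RNA, in their introns. Their 4 probes, of 3 genes, were all called higher in females under all scalings. The brighter probe of Uhg3 read 16959 and 16157 in females and 675.3 and 540.4 in males (4.78, SE 0.11). Uhg2 and Uhg5 had differences of 4.10 and 3.63. Over all kept probes, 64.0% were called higher in females in the main scaling and 32.4% under all scalings. These groups hold few probes, and except for U11 and Uhg3 they were picked after their values had been seen.

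Ribosomal protein genes were higher in females in the main setting, and part of them depended on scaling. Their 5 probes, of 4 genes, were all called higher in females, 2 of them (40.0%) under all scalings. These shares over all kept probes were 64.0% and 32.4%. RpS7 read 162.5 and 171.1 in control and HN females and 24.3 and 23.5 in control and HN males (log2 difference 2.80, SE 0.10). The very bright gene RpL18 had differences of 1.73 and 2.09 on its 2 probes, which went to -0.048 and 0.31 with the median over probes on all 4 arrays. All 3 probes of mitochondrial ribosomal protein genes were called higher in females under all scalings, with differences from 2.72 to 3.16. The digestive enzyme gene alphaTry, one of the brightest, read 231541 and 239113 in females and 93151 and 97772 in males. Its difference of 1.30 turned to -0.48 with the median over probes on all 4 arrays, to -0.30 with the 75th percentile and to -0.28 with quantile normalization, so it has no settled direction. The genes of this paragraph were chosen after their values had been seen.

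In males, the named genes with the largest differences were mostly of unnamed function and male-limited. CG2127 read 8.38 and 6.55 in control and HN females and 31368 and 28601 in control and HN males, at least 2020-fold higher in males (adjusted p = 9.75e-05). The lncRNA CR43279 had 2 probes, at least 1468-fold and 1014-fold higher in males. The brighter probe read 6.63 and 6.34 in females against 24433 and 19381 in males. The lncRNA CR32661 was at least 1642-fold and 416-fold higher on its 2 probes. CG9875, CG10589 and CG32450 reached at least 652-fold, 613-fold and 447-fold. The lncRNA CR32690 and CG12521 were lower on this scale, at least 252-fold and 231-fold. A second, dimmer probe of CG10589 reached at least 17.3-fold. All of these were male-limited. On their brightest probes, these genes read from 3106 to 31368 in males and from 6.11 to 8.38 in females.

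A different pattern was seen in the lncRNA CR32658. Its 3 probes read between 57.7 and 85.7 in females and between 27122 and 39461 in males. They were above background on all 4 arrays, and their log2 differences were -8.91, -8.83 and -8.72.

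**Figure D4:**
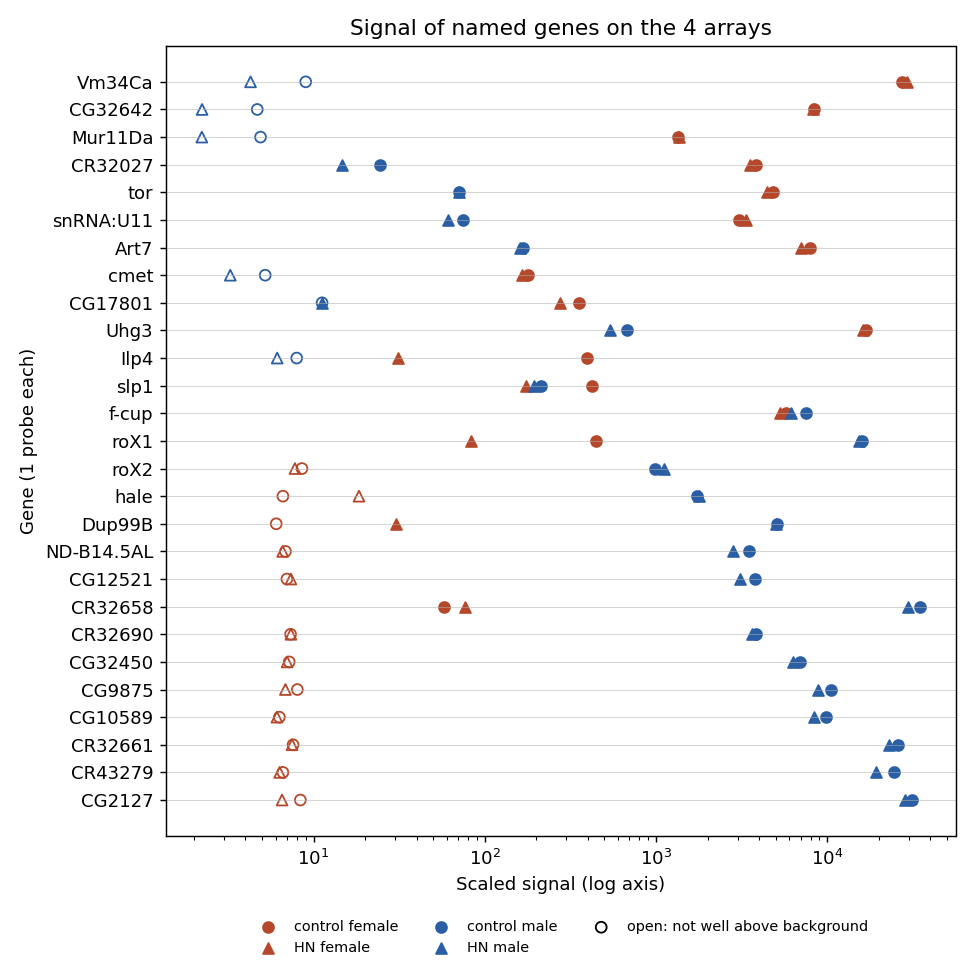
Scaled signal on a log axis (horizontal) of named genes (vertical axis, 1 probe each, the one with the largest difference) on the 4 arrays, with circles for control, triangles for HN, red for females and blue for males, and open symbols where the probe was not well above background. Female and male signals overlap for slp1 alone, and HN females lie far below control females for Ilp4 and roX1.

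The testis and seminal gene lists hold 90 and 72 symbols, some of them names of the same gene, and 3 of the genes matched probes. The gene hale belongs to the genes transcribed late in spermatid development. It read 6.63 in control and 18.4 in HN females, neither above background, and 1739 and 1781 in control and HN males. Over both pairs this is at least 105-fold higher in males (adjusted p = 0.000692), with a log2 difference of -6.59 in the HN pair. Dup99B encodes a peptide of the ejaculatory duct that is transferred in mating. It read 6.06 in control females, where it was not above background, 30.2 in HN females, where it was, and 5113 and 5053 in males. Its log2 difference was -7.39 in the HN pair, the pair in which both arrays were above background, and the fit called it higher in males (adjusted p = 0.00151). The third, soti, was not above background on any array, with signals from 7.97 to 16.2. A further spermatid gene, f-cup, was chosen after its values had been seen. It read 5772 and 5337 in females and 7518 and 6143 in males. Its difference of -0.29 did not pass the limit in the main setting (adjusted p = 0.0719) and passed it in the direction of males under the other 4 scalings.

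The repeats of Suppressor of Stellate, which silence the Stellate genes in the male germ line, were male-limited. Su(Ste):CR42418 read 8.78 and 6.82 in females and 279.4 and 235.9 in males, at least 17.3-fold higher. Su(Ste):CR42406 read 6.95 and 6.73 in females and 57.9 and 60.1 in males, at least 3.98-fold higher. Both were chosen after their values had been seen, and near-identical repeats may share signal on these probes.

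The list of sex determination and dosage compensation holds 19 symbols, with roX1 and roX2 each spelled in 2 ways, and only these 2 genes matched probes. Their 6 probes were all called higher in males under all 5 scalings, as were 18.5% of all kept probes. roX2 was male-limited. One probe read 8.56 and 7.79 in control and HN females and 987.2 and 1115 in control and HN males, at least 70.8-fold higher, and the other was at least 26.6-fold higher. roX1 was found on all 4 arrays. Its probe with the largest difference read 448.8 in control females, 83.5 in HN females, and 15939 and 15321 in control and HN males. The HN female array was the lower female array on all 4 probes of roX1, by 2.20-fold to 7.44-fold. The log2 difference of this probe was accordingly -5.15 in the control pair and -7.52 in the HN pair (fitted -6.33, SE 0.68, adjusted p = 0.00346). The other roX1 probes gave -6.33, -5.61 and -5.44.

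Respiratory chain genes showed both patterns. ND-B14.5AL, which encodes a protein like a subunit of complex I, was male-limited, with 6.86 and 6.61 in control and HN females and 3507 and 2809 in control and HN males. It was at least 212-fold higher in males (adjusted p = 9.82e-05). ND-39, a subunit of the same complex, was found in both sexes. It read 47128 and 54419 in females and 23516 and 32693 in males, a log2 difference of 0.87 that turned negative under the other 4 scalings (from -0.24 to -0.91). ND-39 was named after its values had been seen.

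Long non-coding and antisense RNAs held a larger share of probes higher in males than the whole array. Of 75 kept lncRNA probes (52 genes), 34 were over 2-fold higher in males in both treatments and 22 in females, or 45.3% and 29.3%, where all kept probes gave 15.2% and 50.9%. Of 29 kept antisense RNA probes (26 genes), 20 (69.0%) were over 2-fold higher in males and 3 (10.3%) in females, with a median difference of -2.93. Male-limited probes made up 20 of the 75 (26.7%) and 16 of the 29 (55.2%), beside 11.8% of all kept probes. An antisense RNA that was female-limited, CR42871, read 172.7 and 147.2 in females and 9.71 and 9.56 in males, at least 15.9-fold higher. These are shares of probes, and a gene with several probes counts once for each. The lncRNA roX1 has 4 probes, and roX2, CR32658, CR43279 and CR32661 also have more than 1, all higher in males. Shares by gene were not counted. These shares are descriptions and were not tested.

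Some probes carry the name of a cDNA clone instead of a transcript, and the prefix of that name tells from which tissue library the clone came. Of 123 kept probes of adult testis clones, 81 (65.9%) were over 2-fold higher in males in both treatments, against 15.2% of all kept probes, and 66 were male-limited. Their median difference was -4.33. Under all 5 scalings 86 (69.9%) were called higher in males, beside 18.5% of all kept probes, and 0 were called higher in females. Of 76 probes of ovary clones, 48 (63.2%) were over 2-fold higher in females, beside 50.9% of all kept probes, and 2 were higher in males. Their median was 1.26, near that of all kept probes (1.18), and 20 (26.3%) were called higher in females under all 5 scalings, beside 32.4% of all kept probes. Embryo clones gave 106 of 173 (61.3%) higher in females and 5 in males, with a median of 1.57, and 60 (34.7%) were called higher in females under all scalings. Head clones had 60 of 219 (27.4%) higher in females and 18 in males, with a median of 0.52, and 21 (9.59%) were called so under all scalings. The larval and early pupal clones gave 10 and 2 of 24, and those of S2 cells, a cell line made from embryos, gave 38 and 3 of 68. Female-limited probes made up 4 (5.26%) of the ovary, 8 (4.62%) of the embryo and 2 (0.913%) of the head clones, beside 2.42% of all kept probes. Male-limited probes made up 4 (5.26%) of the ovary, 4 (2.31%) of the embryo and 18 (8.22%) of the head clones, beside 11.8% of all kept probes. Where a median lies relative to 0 depends on the scaling, which moves all libraries together by up to 1.78.

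**Figure D5:**
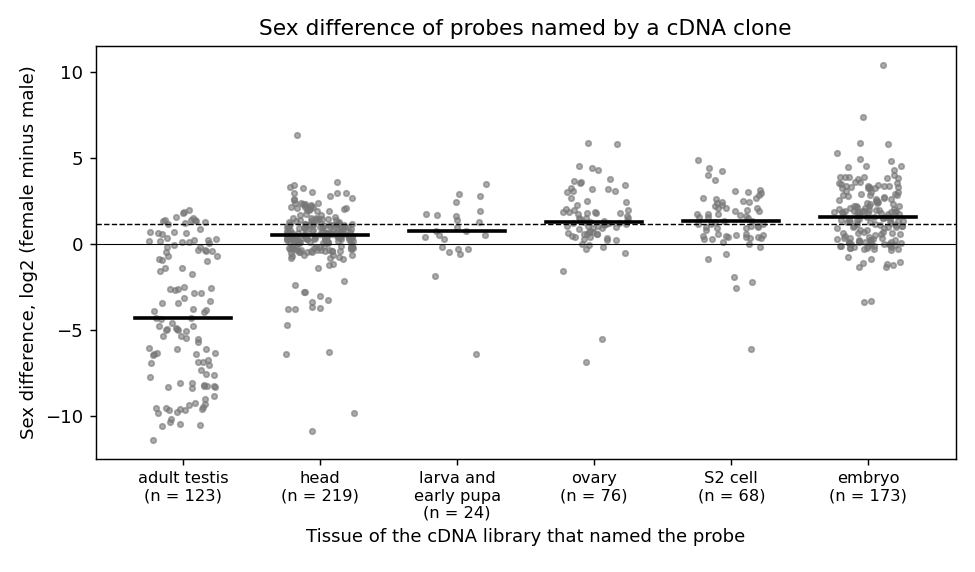
Sex difference in log2 units, female minus male (vertical axis), of each kept probe named by a cDNA clone (grey points), by the tissue of its library (horizontal axis, with the number of probes), with the median as a black bar and the median of all kept probes, 1.18, as a dashed line. Testis clones reach from -11.39 to 1.98 with a median of -4.33, and the medians of all other libraries lie between 0.52 and 1.57 in the main scaling, with probes below background in 1 sex at their own signal.

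In a few named genes the sex difference was far apart in the control and HN pairs, which was not tested since each pair has 1 array per sex. Ilp4, an insulin-like peptide known mainly from the embryo, read 394.2 in control females, 31.2 in HN females, and 7.98 and 6.14 in control and HN males. It was female-limited, with a bound of 13.8-fold over both pairs (adjusted p = 0.0275). Its log2 difference was 5.63 in the control pair and 2.35 in the HN pair. The call was lost without the control male array (adjusted p = 0.0507), without the HN male array (0.0664), with the 75th percentile (0.0871), with the median over probes on all 4 arrays (0.104) and with no filter (0.0719). A second probe of Ilp4 read 354.9, 23.7, 5.29 and 7.59 on the control female, HN female, control male and HN male arrays and was not kept. Ilp6, a further insulin-like peptide, read 42.8 and 37.9 in females and 7.33 and 5.99 in males, at least 5.06-fold higher (adjusted p = 0.000271).

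The other 2 genes of this kind were roX1, described above, and the lncRNA CR43605. The latter read 7.32 in control females, 69.5 in HN females, and 264.2 and 260.4 in control and HN males. It was not above background in control females, and its log2 difference in the HN pair was -1.91. The call in the fit (adjusted p = 0.0366) was lost without the control male array (adjusted p = 0.0586), without the HN male array (0.0575), with quantile normalization (0.0628), with no filter (0.0881) and with the robust prior (0.0546). In all 3 genes the female arrays differed from each other and the male arrays did not by much. The segmentation gene slp1 read 424.2 in control females, 174.7 in HN females, and 214.0 and 195.2 in control and HN males, so that the HN female and both male arrays were close to each other and the control female array was high. Its fitted difference of 0.41 did not pass the limit (SE 0.34, adjusted p = 0.324). The same fit called it higher in males with the 75th percentile (-1.19, adjusted p = 0.0405) and without scaling (-0.70, 0.0461). It did so too with the median over probes on all 4 arrays (-1.37, 0.0286). With normexp background correction slp1 was called higher in females (0.35, 0.0309), so it has no settled direction.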

How the data were processed

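RNA of 20 pooled flies per sex and treatment was labelled with Cy3 and hybridized to 1 Agilent Drosophila array per pool. The authors deposited the intensity of every spot, taken here as the processed signal, from which Feature Extraction had subtracted background, and a table with 1 intensity per probe. Neither is scaled between arrays. The methods name another release than the file headers (Feature Extraction 11.5.1.1). They also describe a floor of 5 and scaling to the 50th percentile, which the deposited values do not hold. The log2 values used here were computed from these deposited intensities.

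Control and outlier spots were left out, spots were averaged per probe as log2, and arrays were scaled to their median over all probes at a common level. A probe counted as well above background where at least 50% of its spots did. The fit used limma 3.58.1 in R 4.3.3 with sex and treatment (1 residual degree of freedom, prior degrees of freedom 2.11, prior SD 0.11) and Benjamini-Hochberg adjusted p under 0.05 over the 24731 kept probes. The script was tested on simulated data. Pools differ by treatment within a sex, so p-values measure only how alike the pairs are, and the number of arrays limits precision.

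Other scalings, normexp (offset 50, on the median spot and background signals), the table of probe values, the floor, outlier spots kept, other filters, priors and models, and leaving out each array were tried. The files give identifiers without symbols. A RefSeq table of the Release 6 assembly gave a symbol to 412 of 32162 probes (1.28%, 360 genes). The array design is older, so no coordinates are given. Named are the 10 symbols with the largest difference in each direction, listed genes that passed the filter, the 5 brightest sex-limited symbols of each sex, the 3 whose pairs lie farthest apart, and 2 transcripts in each direction. Others are marked as chosen after their values had been seen. The members, lists and tests were chosen with earlier results of these data known.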

Additional observations from a re-analysis of the deposited data

Results flagged for a closer look

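A few probes had a sex difference of opposite sign in control and HN flies. There were 25 probes past 2-fold in opposite directions in the pairs. With 1 array per sex and treatment, the difference between the pairs was not tested for any of them. Among the named probes, slp1 had a sex difference of 0.99 in the control pair and -0.16 in the HN pair (female minus male, log2). The second is near the repeat-spot error in size, but that error leaves out differences between pools of flies. The transcript FBtr0086621, chosen after its values had been seen, had 2 probes that moved together. On one probe the control female array read 3702, the HN female array 440.5, the control male array 192.1 and the HN male array 2566, so that its sex difference was 4.27 in the control pair and -2.54 in the HN pair. The other read 2947, 357.9, 152.9 and 1921 on the same arrays, with 4.27 in the control pair and -2.42 in the HN pair. Females were thus higher in control flies and males higher in HN flies on both probes. The fitted sex differences of 0.86 and 0.92 did not pass the limit (limma, adjusted p = 0.699 and 0.676), and the gene of this transcript is not given by the files.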

How the results depend on the processing

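The scaling between arrays changed the balance of the sexes most. Probes called higher in females numbered 15820 in the main setting, 9743 without scaling, 8811 with the 75th percentile and 8004 with the median over probes on all 4 arrays, and 8002 were called under all 5 scalings. Those higher in males numbered 4974 in the main setting, and 8991, 12442 and 13201 in the same order, with 7812 under quantile normalization. The share higher in females was 76.1%, and 52.0%, 41.5%, 37.7% and 61.4% under these scalings. It was 77.2% under normexp, 86.8% with probes on all 4 arrays, 78.6% with no filter and between 75.6% and 77.6% when 1 array was left out. Over 2-fold in both treatments, females went from 12600 to 7177, 5754 and 5020, and males from 3768 to 6538, 9282 and 10011, without scaling, with the 75th percentile and with the median over probes on all 4 arrays. A limit of 4-fold left 8301 in females. Probes on all 4 arrays, which leave out sex-limited ones by construction, gave 2241 called and 855 over 2-fold higher in males. The median size of 1.96 became 1.42 with the 75th percentile, 1.37 without scaling, 1.44 with the median over probes on all 4 arrays, 1.40 with quantile normalization, 1.42 under normexp, 1.63 with probes on all 4 arrays and 1.47 with no filter.

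Sex-limited probes numbered 361 in females and 1609 in males under the flag for positive and significant signal, against 598 and 2913. With 1 array left out they ranged from 619 to 1452 and from 3040 to 3964. Apart from the scalings and filters named, what caused the shifts was not tested.

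Of 1003 values of named probes under the alternatives, 957 kept their direction and side of the limit, 14 lost the call, 10 gained it and 22 changed sign. The sign changes, given for the 75th percentile, no scaling and the median over probes on all 4 arrays in this order, were -1.19, -0.70 and -1.37 for slp1, -0.74, -0.25 and -0.92 and, on the second probe, -0.68, -0.19 and -0.86 for FBtr0086621, and -0.73, -0.24 and -0.91 for ND-39. Quantile normalization gave -0.45 for ND-39 and -0.28 for alphaTry. alphaTry was -0.30 with the 75th percentile and -0.48 with the median over probes on all 4 arrays, where RpL18 was -0.048. With 1 array left out, slp1 ranged from -0.23 to 1.05 and FBtr0086621 from -1.01 to 2.73 and, on the second probe, from -0.90 to 2.75, with the lowest values without the control female array for slp1 and without the control male array for FBtr0086621. Without the control female array FBtr0086621 was -0.67 and -0.60. The fit pairs the sexes by treatment, and without that block 15661 probes were called higher in females and 4828 in males. The labels give no replicate numbers to pair by. Signal over background limits the dim sex, where folds are bounds.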

Other observations

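Transcripts with 2 kept probes allow a check within the arrays. Over 3715 such names, the sex differences of both probes had a median difference of 0.23 on the log2 scale and a Pearson's r of 0.953 across names, which are not independent replicates. In 646 of them (17.4%) the probes differed by more than 2-fold, and in 18 they went in opposite directions, each past 2-fold.

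Sex-limited probes also had residual signal on the arrays of the other sex that was not above background. For the 2913 male-limited probes, the HN female signal minus the control female signal had a median of -0.05 on the log2 scale. It was over 2-fold higher in HN females for 182 probes and over 2-fold higher in control females for 102. For the 598 female-limited probes, the HN male signal minus the control male signal had a median of -0.31, with 28 probes over 2-fold higher in HN and 153 in control males. These are values below the detection limit.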
